A study of Macaca mulatta with 81 samples.

Results

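The cytosolic ribosomal protein genes were followed across T cells of transplanted and healthy rhesus macaques. Members were chosen by symbol: genes named RPL or RPS with a number, with RPSA, RPLP0, RPLP1 and RPLP2, that had a probe set assigned to them alone in the array's gene table. This gave 39 members of 14133 genes, 26 of the large and 13 of the small subunit, and all 39 passed the filter on low signal that left 11807 genes to test. RPSA, RPLP0, RPL3, RPL11, RPL10, RPS27 and RPS4X were among those with no probe set of their own in that table and were not analysed here. Each gene was represented by its brightest probe set, judged by the mean over the 81 arrays, whatever its direction of change.

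Cytosolic ribosomes translate messenger RNA. Their proteins are made in near-equal amounts from some of the most abundant transcripts of a cell, and most of these transcripts carry a 5′ terminal oligopyrimidine (TOP) tract, through which the kinase complex mTORC1 controls their translation. T cells enlarge and make many ribosomes when activated, and sirolimus, which inhibits mTORC1, is given against graft-versus-host disease. Transcript level, measured here, is a different quantity from the translation of these transcripts.

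The study profiled CD3 T cells, sorted by FACS from blood, on Affymetrix arrays from 50 rhesus macaques, of which 27 received a haematopoietic cell transplant and 11 gave arrays both as healthy and as transplanted animals. The labels shorten the prophylaxis names, and Siro is taken here to be sirolimus, Bela belatacept (a CTLA4 fusion protein), Tac.Mtx tacrolimus with methotrexate, and FR104 the CD28-blocking antibody fragment of that name. Values are log2 signals normalised by RMA, and a difference of 1 is a doubling.

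Animals with sirolimus made up 6 groups (20 arrays, 11 animals), all with allogeneic grafts. Siro.F received it alone (4 arrays, final sample). Bela.Siro received it with Bela and was sampled on day 14 (3 arrays), on days 29 to 30 (3 arrays) and at the final sample (2 arrays). FR104.Siro received it with FR104 and had 4 arrays in the group named D14, of which 2 were labelled day 14, 1 day 22 and 1 day 34, and 4 final arrays. The other allogeneic recipients made up 7 groups (21 arrays, 13 animals). They were NoRx.F without prophylaxis (4 final arrays), Bela.F (3 final arrays), FR104 on day 14 and at the final sample (3 arrays each), and Tac.Mtx on day 14 (3 arrays), on day 30 (2 arrays) and at the final sample (3 arrays). Autologous recipients without prophylaxis were sampled on day 14 and day 36 (3 arrays each), and 34 arrays came from healthy controls. The labels do not give the day of a final sample or the age of an animal.

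Members differed widely in signal, and they are described in 3 tiers set after the values were seen, since a small log2 difference has another meaning for each. The 23 bright members had a mean of at least 13, with means of 13.4 to 14.4, and only 0.414% of the 52865 probe sets were that bright. Healthy controls varied little in them, with an SD of 0.04 to 0.14 among the 34 arrays. The 9 middle members had a mean of 9.0 to 12.6 and a healthy SD of 0.12 to 0.44. They were RPL19, RPL22, RPL22L1, RPL24, RPL26L1, RPL32, RPL7L1, RPS10 and RPS9. The 7 dim members, RPL31, RPL3L, RPL4, RPL5, RPS16, RPS19 and RPS27L, had a mean of 4.29 to 7.99 and a healthy SD of 0.13 to 0.44. Signals of different probe sets were not compared with each other, so a dim member is not shown to be a scarce transcript.

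Ribosomal protein genes have many near-identical processed copies, and 9 of the probe sets used were of the _s_at and 3 of the _x_at type, which Affymetrix designs to match more than 1 transcript. Signal from such copies cannot be told apart from that of the gene. CD5 was the only listed T cell marker with a probe set of its own, with a signal of 9.87 to 11.3 over all arrays. Since probe sets cannot be set against each other, the purity of the CD3 sort was not measured. Markers of other cells varied between arrays: S100A8 of monocytes and granulocytes ran from 5.22 to 13.5, the erythroid HBA from 6.24 to 13.8, the platelet gene PPBP from 6.26 to 13.4, KLRF1 of NK cells from 3.57 to 10.7 and MS4A1 of B cells from 3.00 to 6.68. The healthy arrays differed less between batches than chance allows, so the deposited values appear to carry a batch adjustment, and the spread may be understated.

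The bright members were lowest in allogeneic recipients without prophylaxis and in autologous recipients on day 36. Their mean in an array, taken relative to the healthy mean, was −0.26 to −0.18 in the 4 NoRx.F arrays and −0.23 to −0.15 in the 3 Auto.D36 arrays, against −0.12 to 0.09 in the 34 healthy arrays. Every NoRx.F and Auto.D36 array lay below the lowest healthy array. Of the Auto.D14 arrays, 2 also lay below it (−0.20 and −0.14) and 1 did not (0.02). All arrays of the 6 sirolimus groups, such as Siro.F at −0.08 to 0.04, and all arrays of the 6 other allogeneic groups with prophylaxis, such as Tac.Mtx.F at −0.11 to −0.03, lay inside the healthy range. In bulk T cells, fewer cells of a T cell type and less RNA of a gene per cell cannot be told apart.

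**Figure D1:**
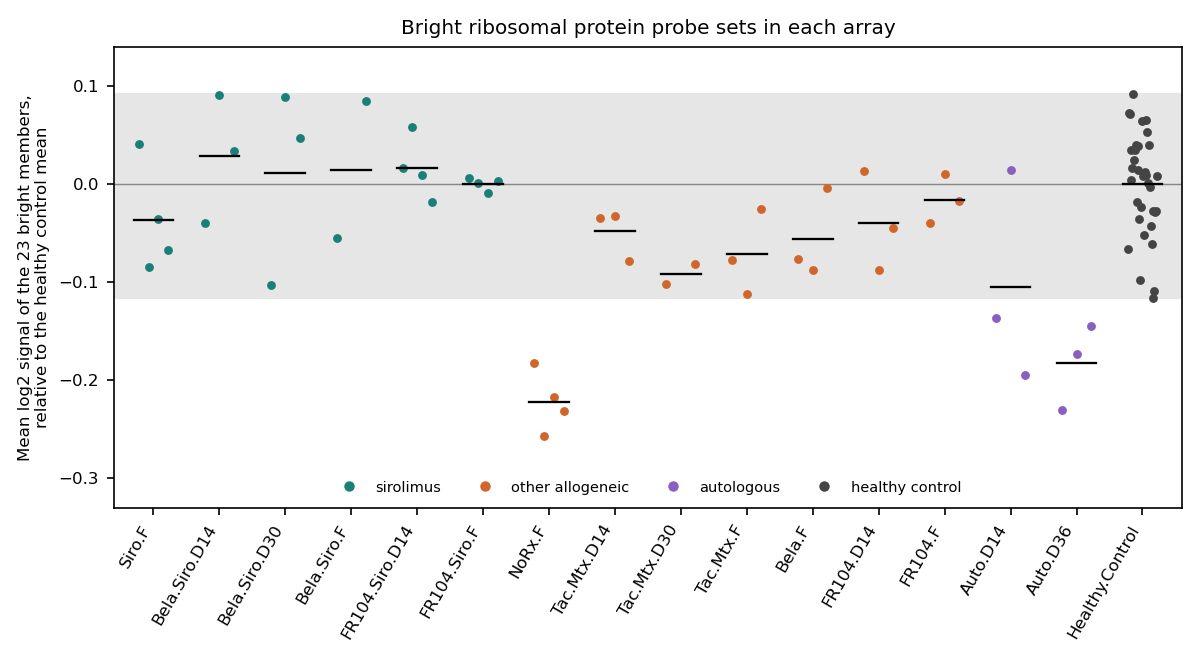
Mean log2 signal of the 23 bright ribosomal protein genes in each of the 81 arrays, relative to the healthy mean, by group; points are arrays, black lines group means and the grey band the healthy range. The 4 NoRx.F arrays (−0.26 to −0.18) and the 3 Auto.D36 arrays (−0.23 to −0.15) lie below the band of −0.12 to 0.09.

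In NoRx.F animals most ribosomal protein transcripts were lower than in healthy controls. Of the 39 members 23 were lower and 2 higher at an adjusted p under 0.05 (limma, Benjamini-Hochberg over all 11807 genes), where 15.4% of all genes were lower and 20% higher. The median change was −0.16 over the members and 0.05 over all genes. Of the bright members 18 of 23 were lower and none was higher, with all 23 changes negative (−0.51 to −0.03). Both subunits took part, with 13 of 26 large-subunit and 10 of 13 small-subunit members lower. In 11 members every NoRx.F array lay below every healthy array, and in 2 above, where 4.9% and 7.39% of all genes did so.

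Among the small-subunit proteins, RPS6, the substrate of the S6 kinases that act below mTORC1, read 14.10, 14.04, 14.06 and 13.97 in the NoRx.F arrays, against 14.21, 14.29 and 14.39 (lowest, median, highest) in healthy controls. The 2 groups did not overlap. The change was −0.25 (SE 0.033, adjusted p 6.37e-09), a signal 0.84 times the healthy one. RPS3, which lies at the entry of the messenger RNA channel, read 13.84, 13.89, 13.86 and 13.96 in NoRx.F and 13.97, 14.10 and 14.21 in healthy controls. It too did not overlap, with a change of −0.20 (SE 0.05, adjusted p 0.000922). RPS21 fell by 0.34 (adjusted p 3.58e-07) and RPS7 by 0.34 (adjusted p 3.24e-06), and their groups were also apart.

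RPS10, a protein of the small-subunit head that is marked with ubiquitin when ribosomes collide, belonged to the middle tier and changed more. Its signal was 10.68, 10.68, 10.57 and 11.06 in NoRx.F, against 11.08, 11.46 and 11.68 in healthy controls. All 4 arrays lay below the healthy range, and the change was −0.67 (SE 0.11, 0.626 times, adjusted p 4.91e-07). RPS16, whose tail reaches the transfer RNA in the P site, fell by 0.61 (adjusted p 0.0306), a call lost on leaving out animal 51, 52 or 53. Its 4 NoRx.F arrays, at 7.24, 6.59, 6.77 and 6.82, overlapped the healthy range of 6.61 to 8.15.

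Among the large-subunit proteins, RPL10A, which forms the mobile L1 stalk, read 13.26, 13.18, 13.23 and 13.20 in NoRx.F and 13.51, 13.74 and 13.91 in healthy controls. The 4 arrays were close together and below every healthy array, with a change of −0.51 (SE 0.072, 0.701 times, adjusted p 2.33e-08). RPL30, whose yeast counterpart binds its own transcript, read 13.997, 13.982, 13.983 and 13.993 in NoRx.F, against 14.19, 14.28 and 14.36 in healthy controls. The 4 arrays lay close together and below every healthy array, at −0.29 (SE 0.028, 0.816 times, adjusted p 3.23e-13).

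RPL32, a middle-tier member, had the largest fall. It read 8.85, 8.51, 8.72 and 9.28 in NoRx.F, against 9.57, 10.07 and 10.41 in healthy controls. The groups did not overlap, and the change of −1.19 (SE 0.13, adjusted p 6.76e-11) left 0.439 times the healthy signal. RPL31, which sits at the exit of the peptide tunnel, fell by 0.81 (SE 0.24, adjusted p 0.00546). RPL22, which mice need for the development of αβ T cells, fell by 0.79 (SE 0.24, adjusted p 0.00584), and without animal 50 by 0.62 (adjusted p 0.0591). Its NoRx.F arrays, at 10.39, 11.16, 10.91 and 11.27, overlapped the healthy range of 10.53 to 12.38.

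The acidic stalk proteins, which recruit translation factors to the large subunit, gave unequal values. RPLP2 read 13.74, 13.65, 13.69 and 13.58 in NoRx.F and 13.91, 14.03 and 14.14 in healthy controls, with a change of −0.36 (SE 0.044, adjusted p 5.23e-10) and no overlap. RPLP1 read 13.95, 13.93, 13.92 and 13.95, inside the healthy range of 13.80 to 14.22, with a change of −0.11 (adjusted p 0.0785). Whether the 2 proteins differed from each other was not tested.

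RPL24 and RPL26L1 were higher in NoRx.F. RPL24, which joins the large subunit late in its assembly and faces the small one, read 11.99, 11.71, 12.51 and 11.88 in NoRx.F, against 9.79, 10.53 and 11.33 in healthy controls. All 4 arrays lay above the healthy range, at 2.79 times the signal (1.48, SE 0.27, adjusted p 9.23e-06). RPL26L1, a near-identical relative of RPL26, read 10.23, 9.49, 9.51 and 9.43, against 8.15, 8.84 and 9.30. It was also above every healthy array (0.93, SE 0.20, 1.91 times, adjusted p 0.000101), while RPL26 had a change of −0.03 that did not pass. A second probe set of RPL26 fell by 1.04, so the signal of this gene depended on the probe set.

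Other measures moved in the same arrays. The mean of 8 cell cycle genes, relative to healthy controls, was 2.49 to 3.65 in NoRx.F, against −0.58 to 0.79 in healthy arrays, and that of naive T cell genes was −0.98 to −0.87, against −0.44 to 0.45. Monocyte markers averaged 0.68 to 3.39 in NoRx.F and −1.47 to 2.12 in healthy controls, with 3 of 6 higher. NK cell markers averaged −1.96 to −0.34 in NoRx.F and −1.03 to 0.62 in healthy controls, with 1 of 2 lower, and plasma cell markers 0.19 to 0.67 in NoRx.F and −0.40 to 0.92 in healthy controls, with 2 of 4 higher. Of the B cell markers 1 of 3 was higher, and of 6 erythroid and 4 platelet markers none passed. CD5 fell by 0.44 on the log2 scale. Their part in the lower ribosomal protein signal was not tested.

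In autologous recipients, who had neither an allogeneic graft nor prophylaxis, part of the ribosomal protein transcripts were also lower than in healthy controls. Of the 39 members 13 were lower on day 36 and none higher, where 8.89% of all genes were lower and 7.83% higher. On day 14, 5 were lower and none higher, where 1.92% of all genes were lower and 2.47% higher, and this count was 0 without animal 202 and 8 without animal 201, and 9 with the animal as a block. On day 36 these were 11 bright members with RPL22L1 and RPL31, and all 23 bright members had a negative change. In 5 members every day-36 array lay below every healthy array, where 4.29% of genes did.

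RPS21 read 13.69, 13.80 and 13.70 in Auto.D36, against 13.93, 14.17 and 14.34 in healthy controls, a change of −0.42 (SE 0.064, 0.749 times, adjusted p 6.22e-06). RPL10A read 13.11, 13.43 and 13.46, against 13.51, 13.74 and 13.91 (−0.40, SE 0.086, adjusted p 0.000625). Both groups of 3 were wholly below the healthy arrays. RPL22L1, the relative of RPL22 that RPL22 represses in mice, read 11.62, 12.08 and 11.89, against 12.13, 12.60 and 13.08. It fell by 0.76 (SE 0.19, adjusted p 0.00234) to 0.59 times the healthy signal, again without overlap.

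RPLP2 fell by 0.29 (adjusted p 6.02e-05) and RPLP1 by 0.18 (adjusted p 0.0297) in Auto.D36. Of the 3 repeats that left out 1 Auto.D36 array, 2 lost the call of RPLP1 and none that of RPLP2. RPL31 fell by 1.07 (SE 0.29, adjusted p 0.0061), reading 6.88, 7.14 and 7.08 against a healthy range of 7.05 to 8.98. Members that were low in NoRx.F did not all pass here: RPS6 had a change of −0.09 (adjusted p 0.107), RPS10 of −0.09 and RPL32 of −0.33 (adjusted p 0.162). The NoRx.F and Auto.D36 comparisons share the 34 healthy arrays, and the difference between them was not tested.

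Other measures moved in the day-36 arrays as well. Cell cycle genes averaged 0.97 to 1.91 in Auto.D36, against −0.58 to 0.79 in healthy controls, with 6 of 8 higher, and naive T cell genes −1.14 to −0.36 in Auto.D36, against −0.44 to 0.45, with 3 of 6 lower. CD5 fell by 0.52, 1 of 3 B cell markers was lower, and of 4 plasma cell markers 1 was higher and 1 lower. No monocyte, erythroid, platelet or NK cell marker passed, and the part of these measures in the lower ribosomal protein signal was not tested.

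Actin 3′ signal minus 5′ signal was −0.34 to −0.30 in the 3 Auto.D36 arrays, against 0.43 to 3.83 in healthy controls. With this measure as a covariate 5 of the 13 calls were made, and RPL22L1 (−0.58, adjusted p 0.0722) and RPL31 (−0.70, adjusted p 0.175) were no longer past the threshold. Without animal 200, 8 members passed. The mean spike-in signal of the 3 Auto.D36 arrays was 10.529 to 10.725, below the healthy minimum of 10.747, and its part was not tested.

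**Figure D2:**
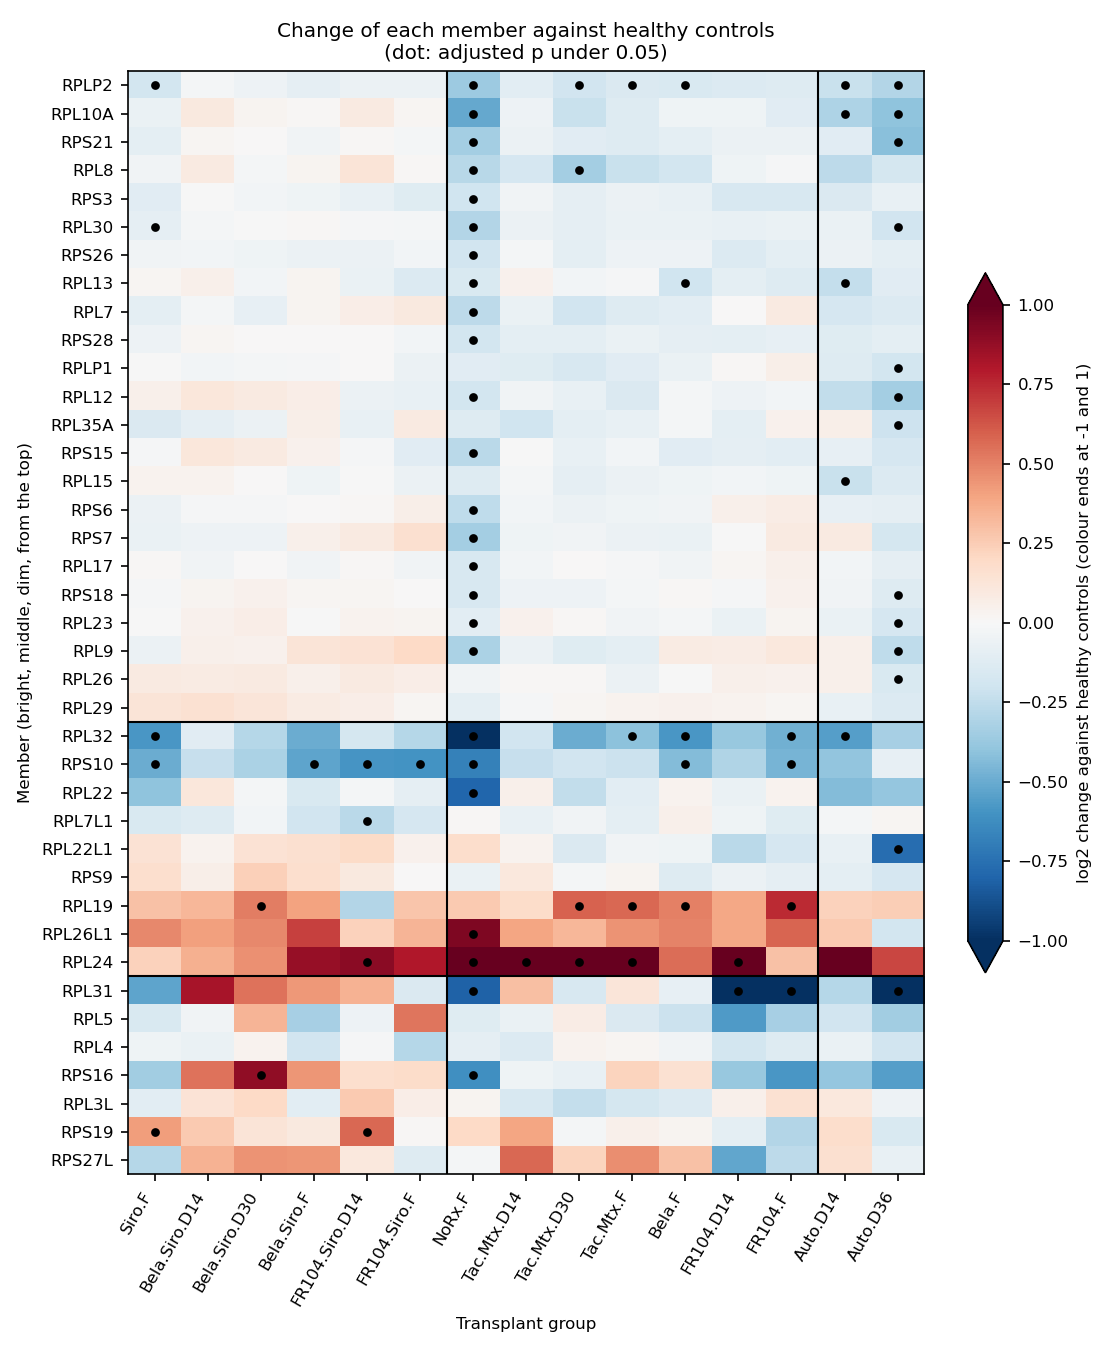
Log2 change of each of the 39 members (vertical axis, by tier) in each of the 15 transplant groups (horizontal axis) against healthy controls; colours end at −1 and 1, and dots mark an adjusted p under 0.05. The NoRx.F column has 23 dots for lower and 2 for higher members, and the Auto.D36 column 13 for lower members.

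Over all 15 groups there were 76 calls against healthy controls in 585 tests of a member in a group, 61 lower and 15 higher, where 4.75% of all gene tests were lower and 6.22% higher. All 15 comparisons share the healthy arrays. In the 6 sirolimus groups 3.42% of the member tests were lower, against 12.8% in the 7 other allogeneic groups, and 4.6% and 4.69% of all gene tests were lower in these groups. Without NoRx.F the share in the other allogeneic groups was 5.13% (2.9% of all gene tests). In the autologous groups it was 23.1% (5.41% of all gene tests).

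The 12 groups other than NoRx.F and the autologous ones had 0 to 5 members past the threshold each. With sirolimus these were 5 in Siro.F (14.6% of all genes) and 0 in Bela.Siro.D14 (2.52%). Bela.Siro.D14 had 5 members and 2225 of 11807 genes at an unadjusted p under 0.05 in limma. Members past the threshold were 2 in Bela.Siro.D30 (7.18%), 1 in Bela.Siro.F (2.84%), 4 in FR104.Siro.D14 (18.2%) and 1 in FR104.Siro.F (10.1%). In the other allogeneic groups they were 5 in Bela.F (17.6%), 2 in FR104.D14 (5.39%), 4 in FR104.F (10.7%), 1 in Tac.Mtx.D14 (1.47%), 4 in Tac.Mtx.D30 (3.46%) and 4 in Tac.Mtx.F (14.1%). With 2 to 4 arrays a group, these counts moved with single arrays, as in Bela.F, where 1 member passed without animal 47.

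Individual members had patterns of their own. RPS10 was lower than in healthy controls in 7 of 15 groups, 4 of them with sirolimus. It read 10.80, 11.13, 10.96 and 10.85 in Siro.F and 10.52, 10.84, 10.94 and 10.98 in FR104.Siro.F, against 11.08 to 11.68 in healthy controls, with changes of −0.49 and −0.60. All FR104.Siro.F arrays and 3 of the 4 Siro.F arrays lay below the healthy range. RPLP2 was also lower in 7 groups, of which 1 had sirolimus, and RPL32 in 6.

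RPL24 was higher in 6 groups, among them all 3 of Tac.Mtx. It read 11.46, 12.27 and 11.30 in Tac.Mtx.D14, 12.48 and 12.07 in Tac.Mtx.D30 and 11.10, 12.87 and 11.70 in Tac.Mtx.F, against 9.79 to 11.33 in healthy controls. The changes were 1.14, 1.74 and 1.35, and 2 of these 8 arrays lay inside the healthy range. RPL19, which bridges the 2 subunits, was higher in 5 groups, by 0.50 in Bela.F, 0.51 in Bela.Siro.D30, 0.75 in FR104.F, 0.59 in Tac.Mtx.D30 and 0.58 in Tac.Mtx.F. The FR104.F arrays, at 10.60, 10.63 and 10.80, were all above the healthy range of 9.55 to 10.40.

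RPL31 was lower in 4 groups, which included both FR104 groups without sirolimus. It read 7.04, 6.51 and 7.15 in FR104.D14 and 6.66, 7.03 and 7.38 in FR104.F, against 7.05, 8.13 and 8.98 in healthy controls. The FR104.D14 change was −1.20 and the FR104.F change −1.08. In the same arrays actin 3′ minus 5′ signal was 0.017 to 0.373 and 0.095 to 0.425, below the healthy minimum of 0.43. A fit with this measure as a covariate was made for all comparisons, but its RPL31 values against healthy controls are not given for these groups. RPL5, which carries the ribosomal RNA of the central protuberance and binds MDM2, RPS27L, the p53-induced relative of RPS27, and RPL3L, a relative of RPL3 found in striated muscle, passed in none of the 15 groups. RPL3L stayed at 3.86 to 4.83 in all 81 arrays, around the filter value of 4.65.

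**Figure D3:**
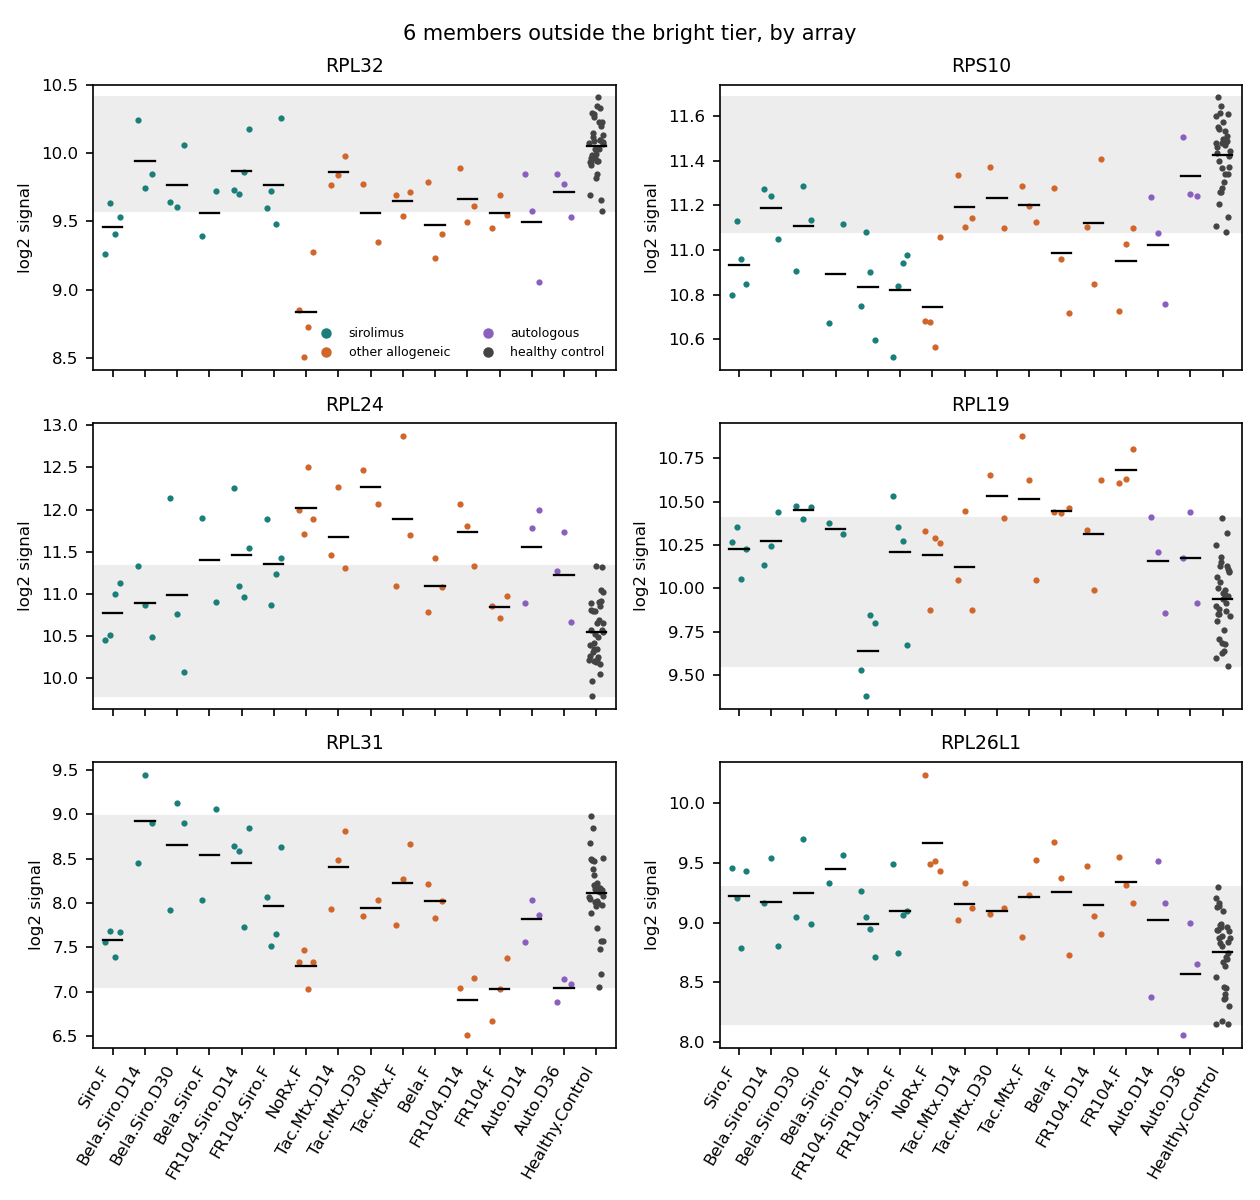
Log2 signal of RPL32, RPS10, RPL24, RPL19, RPL31 and RPL26L1 in each array by group, with the healthy range in grey. RPL32 is lowest in NoRx.F (8.51 to 9.28), the RPL24 points of NoRx.F (11.71 to 12.51) lie above the grey band, and RPL31 is lowest in the FR104 groups without sirolimus (6.51 to 7.38) and Auto.D36 (6.88 to 7.14).

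The next comparison asked whether allogeneic recipients whose prophylaxis contained sirolimus differed from those without it. Ribosomal protein transcripts were slightly higher with sirolimus. Of the 39 members 19 were higher and 3 lower, where 9.94% of all genes were higher and 15.1% lower. The median change was 0.08 over the members and 0.00 over all genes. All 23 bright members had a positive change (0.01 to 0.21) and 14 of them passed. Of the 9 middle members 2 were higher and 3 lower, and of the 7 dim members 3 were higher. By subunit, 8 of 13 small-subunit members were higher and none lower, and 11 of 26 large-subunit members were higher and 3 lower.

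These counts changed with the inclusion of NoRx.F, of the samples before the final one and of single animals. Without NoRx.F 12 members passed, with the animal as a block 14 (13 higher, 1 lower), in the final samples alone 7, all higher, and without the Bela.Siro.F array of animal 42 13. The shares of all genes above belong to the full comparison, and those of these repeats are not given here. Cell cycle genes moved with this comparison, since all 8 were lower with sirolimus (median −1.01), and their part was not tested.

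The largest rise was that of RPL31, which averaged 8.35 over the sirolimus groups and 7.69 over the others (0.66, SE 0.13, 1.58 times, adjusted p 0.000164). Its group means ran from 7.58 in Siro.F to 8.93 in Bela.Siro.D14, against 6.90 in FR104.D14 to 8.41 in Tac.Mtx.D14. The groups overlapped, and the lowest means of the others came from NoRx.F and FR104. Actin 3′ minus 5′ signal averaged 0.14 in FR104.D14 and 0.25 in FR104.F, against 0.72 in FR104.Siro.D14 and 0.52 in FR104.Siro.F. The change of RPL31 with this measure as a covariate is not given here for this comparison or for FR104.Siro.D14 against FR104.D14. RPS16 was higher by 0.50 (SE 0.13, 1.41 times, adjusted p 0.00229). RPS19, the protein most often mutated in Diamond-Blackfan anaemia, was higher by 0.21 (SE 0.070, adjusted p 0.0215). In the final samples alone RPL31 (0.38, adjusted p 0.167), RPS16 (0.30, adjusted p 0.288) and RPS19 (0.18, adjusted p 0.253) did not pass.

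RPL8, which lies close to the peptidyl transferase centre, had the largest rise of the bright members, at 0.21 (SE 0.043, 1.16 times, adjusted p 0.000255), with means of 13.7 and 13.5. Siro.F read 13.75, 13.47, 13.70 and 13.60, Bela.Siro.D14 13.72, 13.91 and 13.65, and FR104.Siro.D14 13.64, 13.98, 13.77 and 13.81. NoRx.F read 13.46, 13.33, 13.38 and 13.41, Tac.Mtx.F 13.35, 13.43 and 13.58, and FR104.F 13.60, 13.67 and 13.72. The FR104 arrays without sirolimus thus lay within the sirolimus range, and the NoRx.F arrays lay below all of the sirolimus arrays.

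RPL10A was higher by 0.19 (SE 0.039, adjusted p 0.000281), RPL30 by 0.08 (SE 0.015, adjusted p 0.000109) and RPS28 by 0.09 (SE 0.019, adjusted p 0.000229). RPLP2 was higher by 0.10 (SE 0.024, adjusted p 0.0012), and RPLP1 had a change of 0.05 (adjusted p 0.15). RPS6, with 0.04 (adjusted p 0.093), and RPS3, with 0.05 (adjusted p 0.199), did not pass. RPL32 was higher by 0.21 (SE 0.073, adjusted p 0.0284), but without NoRx.F its change was 0.10 (adjusted p 0.374).

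RPL24, RPL19 and RPL7L1 were lower with sirolimus. RPL24 averaged 11.1 in the sirolimus groups and 11.6 in the others (−0.50, SE 0.15, 0.706 times, adjusted p 0.00927), and without the Tac.Mtx groups the change was −0.27 (adjusted p 0.271). RPL19 fell by 0.21 (SE 0.074, adjusted p 0.0287) and without the arrays with high spike-in signal by 0.10 (adjusted p 0.454). RPL7L1, a relative of RPL7 known from ribosome assembly, fell by 0.11 (SE 0.042, adjusted p 0.0442), a call lost in 22 of 41 repeats that left out 1 array.

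Against all 10 other groups, healthy and autologous included, 23 members were higher and 2 lower with sirolimus, where 13.2% of all genes were higher and 15.8% lower. The median change was again 0.08, against 0.01 over all genes, and 18 of 23 bright members passed. This comparison shares the sirolimus arrays and the other allogeneic arrays with the one before.

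**Figure D4:**
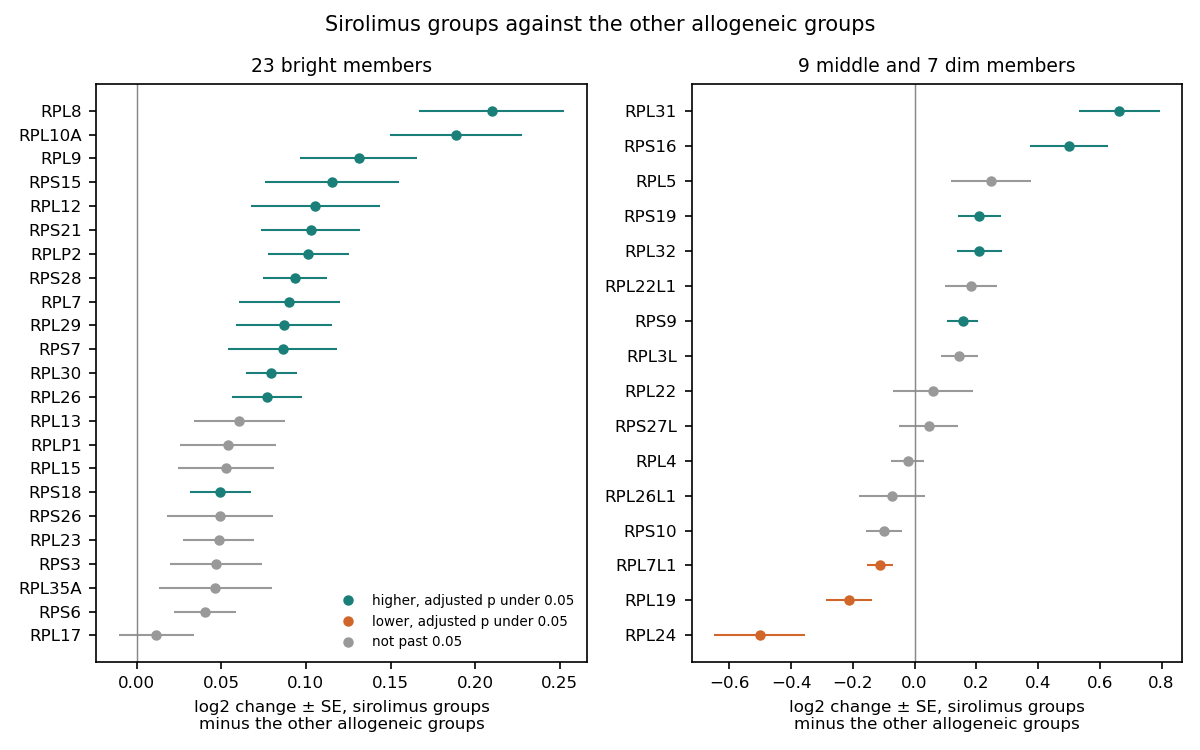
Log2 change (SE as bars) of each member between the sirolimus and the other allogeneic groups, with the 23 bright members on the left and the 16 others on the right, on different horizontal scales. All 23 bright members lie at or right of 0.01, while RPL24 (−0.50), RPL19 (−0.21) and RPL7L1 (−0.11) lie left of 0.

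Sirolimus alone was set against no prophylaxis in the final samples of 4 animals each. The median change over all 39 members was 0.17, against −0.02 over all genes. Of the members 14 were higher in Siro.F, 13 of them bright, and RPL24 was lower, where 5.39% of all genes were higher and 6.67% lower. In 18 members every Siro.F array lay above every NoRx.F array and in 1, RPL24, below, where 6.28% and 7.48% of all genes did so.

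RPL10A read 13.84, 13.59, 13.62 and 13.59 in Siro.F, against 13.26, 13.18, 13.23 and 13.20 in NoRx.F, a rise of 0.44 (SE 0.087, 1.36 times, adjusted p 0.000234). The Siro.F arrays lay in the healthy range of 13.51 to 13.91. RPL30 read 14.25, 14.15, 14.21 and 14.17 in Siro.F and 13.997, 13.982, 13.983 and 13.993 in NoRx.F (0.21, SE 0.034, adjusted p 1.72e-05). RPS6 read 14.30, 14.20, 14.21 and 14.23 in Siro.F and 14.10, 14.04, 14.06 and 13.97 in NoRx.F (0.20, SE 0.04, adjusted p 0.000471). Of the Siro.F arrays, 2 lay below the lowest healthy array in RPL30, and in RPS6 all 4 lay above every NoRx.F array.

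RPS7 read 13.72, 13.77, 13.59 and 13.62 in Siro.F and 13.36, 13.45, 13.44 and 13.35 in NoRx.F (0.28, SE 0.072, adjusted p 0.00605), with no overlap. RPL32 read 9.26, 9.63, 9.41 and 9.53 in Siro.F and 8.85, 8.51, 8.72 and 9.28 in NoRx.F. These overlapped by 1 array, with a rise of 0.61 (SE 0.16, 1.52 times, adjusted p 0.00748). RPL24 read 10.456, 10.512, 10.997 and 11.131 in Siro.F and 11.993, 11.713, 12.506 and 11.884 in NoRx.F, and it fell by 1.25 (SE 0.33, 0.42 times, adjusted p 0.00656). RPS3 (0.09, adjusted p 0.376) and RPLP1 (0.11, adjusted p 0.285) did not pass.

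Both groups lay in batches 1 and 2, and the spread came mostly from the other arrays of the fit. With these 2 groups alone 2 members passed, in batch 1 alone 3 and in batch 2 alone, with 1 NoRx.F array, none, while the median change was 0.13 in batch 1 and 0.18 in batch 2. Cell cycle genes averaged 1.02 to 2.77 in Siro.F and 2.49 to 3.65 in NoRx.F, and naive genes −0.53 to 0.10 in Siro.F and −0.98 to −0.87 in NoRx.F, and their part was not tested.

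**Figure D5:**
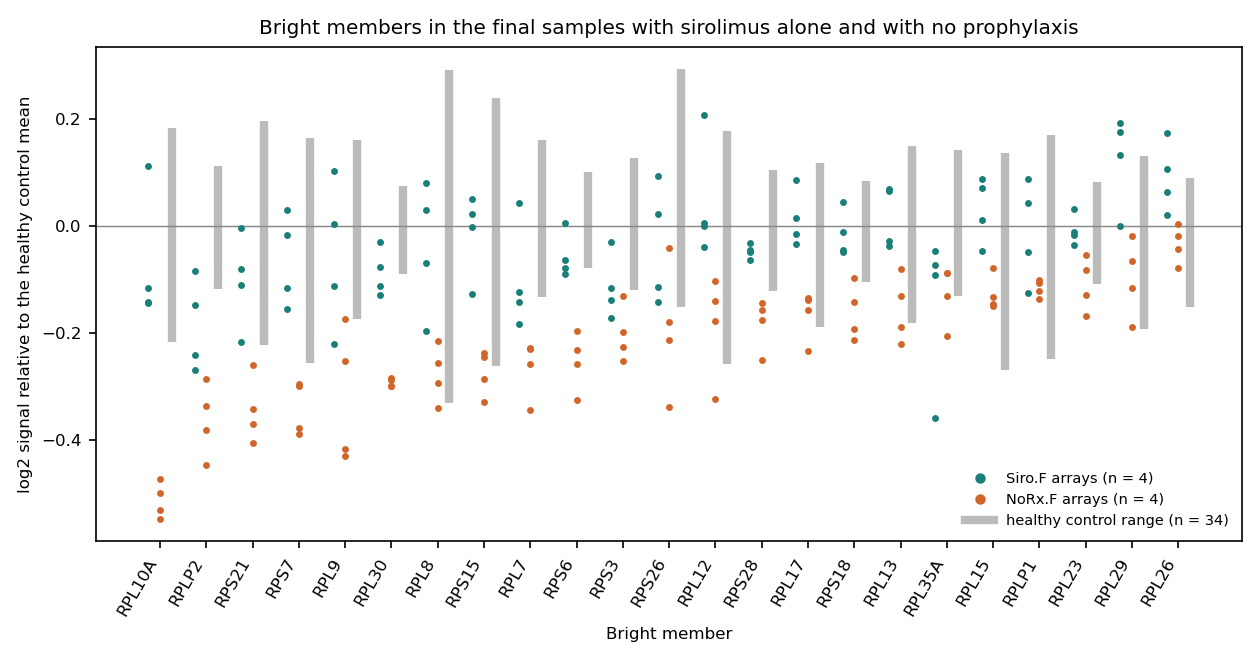
Log2 signal of the 23 bright members relative to the healthy mean in the 4 Siro.F and the 4 NoRx.F arrays, with the healthy range as a bar. For RPL10A, RPL30 and RPS6 the Siro.F points all lie above the NoRx.F points, which are below the healthy bar.

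Sirolimus added to Bela or to FR104 gave few calls. Between Bela.Siro.F (2 arrays) and Bela.F (3 arrays) no member passed in limma, where 0.457% of all genes did. An unadjusted p under 0.05 was found for 3 of 39 members and for 1071 of 11807 genes. The 3 were RPL13 (0.23), RPS9 (0.30) and RPL7L1 (−0.25). Between FR104.Siro.F and FR104.F no member passed, where 0.00847% of all genes did. Here 4 of 39 members and 876 of 11807 genes had an unadjusted p under 0.05. The 4 were RPL31 (0.94), RPL5 (0.87), RPS16 (0.76) and RPL19 (−0.47). RPL5 had 0.54 without the FR104.Siro.F array of animal 26. With Bela and with FR104 the share of members at this unadjusted limit lay near that of all genes. The members named are therefore only listed and are not read as results. The median change of the members was 0.06 with Bela, but −0.03 without the Bela.Siro.F array of animal 42 and 0.14 without that of animal 38. With FR104 it was 0.03, and 0.0019 without the FR104.F array of animal 22.

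Between FR104.Siro.D14 and FR104.D14 RPL31 and RPS19 were higher and RPL19 lower, where 1.49% of all genes were higher and 2.96% lower. RPL31 read 8.65, 8.59, 7.73 and 8.84 in FR104.Siro.D14, against 7.04, 6.51 and 7.15 in FR104.D14 (1.55, SE 0.31, adjusted p 0.00262). RPS19 read 7.14, 6.69, 6.48 and 7.36, against 6.15, 6.38 and 6.20 (0.67, SE 0.17, adjusted p 0.0118). RPL19 read 9.53, 9.38, 9.85 and 9.80, against 10.34, 9.99 and 10.62 (−0.68, SE 0.18, adjusted p 0.0162). None of the 3 overlapped. Over all members, 2 lay wholly below and 6 wholly above in this comparison, so members that did not pass were also apart. The share of all genes without overlap is not given here.

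The FR104.Siro.D14 arrays labelled day 22 and day 34 had no counterpart among the FR104.D14 arrays. With the 2 arrays labelled day 14 alone no member passed, and RPL31 had a change of 1.28 (adjusted p 0.0801). RPS19 without the FR104.Siro.D14 array of animal 29 had a change of 0.52 (adjusted p 0.0944), and RPL19 without the FR104.D14 array of animal 24 of −0.52 (adjusted p 0.147). All 4 FR104.Siro.D14 arrays had spike-in signals above the healthy maximum of 11.5, and 7 of 8 cell cycle genes were lower; their part was not tested.

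Whether the sirolimus difference itself depended on the partner was tested in the final samples as a contrast of the same fit. The members' difference was larger over no prophylaxis than over FR104 by 0.17 in the median, larger over none than over Bela by 0.11, and differed by −0.03 between FR104 and Bela. No member passed in limma in any of the 3 tests, where 32, 11 and 3 of 11807 genes did at the same adjusted threshold. An unadjusted p under 0.05 in limma was found for 14, 6 and 2 members. All genes were not counted at that limit, so these counts cannot be set against a share of all genes. Effects in the 3 settings were therefore not shown to differ for any single member.

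Later samples were compared with earlier ones of the same animals, in the fit of groups and batches, which does not pair the samples of an animal. The exception was Bela.Siro.F against Bela.Siro.D14, where the day-14 group also held animal 49, which had no final array. Over 6 comparisons of a later with an earlier sample there were 4 calls, where 0.432% of all gene tests were higher and 0.257% lower. RPS21 read 13.69, 13.80 and 13.70 in Auto.D36, against 13.94, 14.18 and 13.98 in Auto.D14 (−0.30, adjusted p 0.0251), a comparison in which 0.974% of all genes passed. RPL26, which binds p53 messenger RNA, read 13.94, 13.95 and 14.02, against 14.08, 14.28 and 14.16 (−0.21, adjusted p 0.0282). In both the day-36 arrays lay below all day-14 arrays, and the share of all genes that did so is not given here. The 2 calls became 7 with the animal as a block. They became 0 without the Auto.D14 array of animal 201 or 202 or the Auto.D36 array of animal 200 or 201, 1 without the Auto.D36 array of animal 202, and 6 without the Auto.D14 array of animal 200.

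In FR104.Siro.F against FR104.Siro.D14 RPL19 rose by 0.57 (adjusted p 0.0374) and RPS19 fell by 0.56 (adjusted p 0.0297), where 3.1% of all genes passed. These are members called in the opposite direction between FR104.Siro.D14 and FR104.D14, which uses the same FR104.Siro.D14 arrays. Neither passed without the FR104.Siro.D14 array of animal 26 or 29 or the FR104.Siro.F array of animal 26 or 27, and 1 did without the FR104.Siro.D14 array of animal 27 or the FR104.Siro.F array of animal 28. Over all 6 time comparisons together the 4 calls became 9 with the animal as a block, 1 higher and 8 lower, and 0 with only the groups compared.

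Members of a pair of relatives did not always go together. RPL22 was lower in NoRx.F and not past the threshold in Auto.D36 (−0.39), whereas RPL22L1 was lower in Auto.D36 and not past it in NoRx.F (0.18, adjusted p 0.408). Between sirolimus and the other allogeneic groups neither passed, at 0.06 (adjusted p 0.765) for RPL22 and 0.18 (adjusted p 0.104) for RPL22L1. RPL26 was higher with sirolimus by 0.08 (adjusted p 0.00389), and RPL26L1 had a change of −0.07 (adjusted p 0.647). No test compared the members of a pair.

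Other genes of translation were taken from 3 lists. Of the TOP list, mostly translation factors and ribosome partners with TOP transcripts, 14 of 22 genes were tested. With sirolimus 5 were higher and none lower (median 0.08), where 9.94% of all genes were higher and 15.1% lower. The 5 were the helicase EIF4A2 (0.18), the eIF3 subunits EIF3H (0.15) and EIF3E (0.12), FAU, which encodes a small-subunit protein fused to a ubiquitin-like one (0.08), and the ribosome scaffold RACK1 (0.07). In NoRx.F against healthy controls 5 were lower and none higher (median −0.13), where 15.4% of all genes were lower, and among these were NACA (−1.04), EIF4A2 (−0.71, adjusted p 9.3e-16), EIF3E (−0.30) and FAU (−0.27). The members had medians of 0.08 and −0.16 in these comparisons.

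Of 27 tested ribosome biogenesis genes 3 were higher and 4 lower with sirolimus (median −0.04), and 7 were higher and 4 lower in NoRx.F against healthy controls (median 0.12). Of 17 tested genes of the mTOR pathway 1 was higher and 1 lower with sirolimus, and 3 were higher and 4 lower in NoRx.F. In Auto.D36 5 biogenesis genes were lower and 1 higher (median −0.23), 6 mTOR pathway genes were lower and none higher (median −0.20), and 3 TOP genes were lower and 1 higher (median −0.24). As shares of all genes tested, 9.94% were higher and 15.1% lower with sirolimus, 20% and 15.4% in NoRx.F, and 7.83% and 8.89% in Auto.D36. The biogenesis and mTOR pathway counts with sirolimus and in NoRx.F lay within a few genes of these shares. They are not read as results about these lists. The all-gene medians were 0.00 with sirolimus, 0.05 in NoRx.F and −0.01 in Auto.D36.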

How the data were processed

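CD3 T cell RNA of 81 samples was labelled by the 3′ IVT Plus protocol, per the labels' protocols. The authors deposited RMA signals on the log2 scale, made in affy, per the submitters' processing notes, which give no versions. Batches were compared among the healthy arrays by an F-test, whose p exceeded 0.95 in 61% of 52865 probe sets and in 25 of the 39 probe sets used here (64.1%), where chance gives 5%. The method of the batch adjustment this points to is not given in the sources used here. Arrays carry no read depth, so their number limits the precision. The labels name the animals, but the main fit has no term for the animal. The 47 transplant arrays came from 27 animals, and 11 animals gave both healthy and transplant arrays. The p-values thus treat repeated samples of an animal as independent. They also rest in part on the spread of healthy arrays that appear batch-adjusted, so they are not a pure measure of the spread between animals.

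Genes came from the platform's gene table, with symbols updated through Entrez IDs. A gene was tested if its signal exceeded 4.65, the 40th percentile of the whole matrix, in 2 or more arrays. In R 4.3.3, limma 3.58.1 (lmFit, eBayes with a trend) modelled the 81 arrays by group plus batch, which left 62 residual degrees of freedom. Pooled comparisons weight groups equally. There were 27 comparisons, and p-values are 2-sided and Benjamini-Hochberg adjusted over all genes within each. The fit was tested on simulated data.

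Replicate numbers are animals, per the labels. Samples of an animal deviated together (r of 0.205 to 0.664 over the pairs of the time comparisons), so the animal was added as a random block (statmod 1.5.0, correlation 0.194) as an alternative. The spike-in, actin, NoRx.F and own-batch alternatives were chosen after seeing the data.

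Members and lists were chosen with earlier results of these data known. Named members were the 5 largest rises and falls with sirolimus, the 3 largest in each matched pair, the 5 called most often against healthy controls in each direction, and a fixed set of RPS6, RPS3, stalk proteins and paralogs. RPL30, RPS21, RPS28, RPL13, RPS9, and RPL10A and RPS7 outside their own comparisons, were chosen after their values were seen.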

Additional observations from a re-analysis of the deposited data

Results flagged for a closer look

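In groups of 4 arrays the highest or lowest array was set against the rest, and its gap divided by the whole range was compared with the critical value of Dixon's test. Of 156 tests of a member in a group, 11 passed. Chance passes about 1 in 20, so this count lay near that of chance. The share over all genes was not counted, and the arrays are listed as a description only. In NoRx.F, RPL19 read 9.874 in animal 51, against 10.262 to 10.329 in the others, and RPL26L1 read 10.234 in animal 50, against 9.43 to 9.514.

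In Siro.F, animal 13 was high in RPL10A, at 13.842 against 13.587 to 13.615, and in RPS16, at 7.591 against 6.929 to 7.031. Animal 18 was low in RPL35A, at 14.012 against 14.28 to 14.324. In FR104.Siro.D14, RPL12 read 13.924 in animal 27, the array labelled day 34, against 13.762 to 13.783 in the others.

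In FR104.Siro.F, 5 members had such an array. Animal 26 was high in RPL5, at 7.857 against 6.504 to 6.686, and in RPS27L, at 5.855 against 5.197 to 5.26, and low in RPL8, at 13.596 against 13.704 to 13.721. Animal 29 was high in RPS7, at 14.003 against 13.856 to 13.859, and low in RPS18, at 14.321 against 14.357 to 14.359.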

How the results depend on the processing

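The count of 22 members between the sirolimus and the other allogeneic groups was 14 with the animal as replicate block, 7 in final samples only, 12 without NoRx.F and 13 to 23 when 1 array was left out, and 16 to 23 otherwise. Against all other groups the count of 25 was 19 to 27. The 15 calls of Siro.F against NoRx.F were 2 with only the groups compared, 3 in batch 1 alone, 0 in batch 2 alone and 11 to 14 with 1 array left out. The 3 calls between FR104.Siro.D14 and FR104.D14 were 1 with only the groups compared, 1 in batch 4 alone, 0 with the day-14 arrays alone and 1 to 4 with 1 array left out. The 76 calls of the 15 groups against healthy controls were 115 without the batch term (27 higher, 88 lower), 81 with the replicate block, 54 with each group in its own batch and 70 to 81 with 1 array left out. The 4 calls over time were 9 with the replicate block, 0 with only the groups compared, 2 with the actin covariate, 6 with renewed quantile normalisation (all lower) and 2 to 8 with 1 array left out. The replicate block changed no other count by over 1.5 times among the comparisons of sirolimus, and against healthy controls it gave 9 in place of 5 calls in Auto.D14, 2 in place of 4 in Tac.Mtx.D30 and 2 in place of 1 in FR104.Siro.F. The cause of these shifts was not tested. Fits on fewer groups or arrays also have fewer degrees of freedom, and the part of this was not tested either. With 1 array left out, counts against healthy controls were 22 to 23 in NoRx.F and 8 to 11 in Auto.D36 but, among the small groups, 0 to 3 in Tac.Mtx.F (0 without animal 20), 0 to 1 in Tac.Mtx.D30, 0 to 4 in Bela.Siro.D30 (0 without animal 42) and 1 to 3 in FR104.F (1 without animal 22). The Bela.Siro.F against Bela.F and FR104.Siro.F against FR104.F counts were 0 in every alternative run, and without the Bela.Siro.F array of animal 42 the median of the members was −0.03. Of 3102 repeats for single named members 127 lost and 41 gained a call. None reversed a change that was called in the main fit or in the repeat. Changes that were not called did switch sign in some repeats. RPS27L between Bela.Siro.F and Bela.F had 0.14, and −0.23 to 0.52 with 1 array left out. A fit of only the groups compared could not be made for the pooled sirolimus comparisons. Shares of all genes are not given for these alternatives, so their counts show only how the calls moved. What the arrays resolve is limited for the bright members, which lie near the top of the signal scale, and for dim ones near the filter value.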

Other observations

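After group and batch were removed, bright members varied together over the 81 arrays, with a median correlation of 0.42 over 253 pairs (−0.24 to 0.77), as a description of arrays that share animals, batches and normalisation. The median was −0.04 among middle and 0.24 among dim members. With the mean of the other bright members RPL10A had an r of 0.89, RPL30 of 0.82 and RPL29 of 0.79, while RPL35A had 0.09 and RPS7 0.12. RPL22L1 had 0.70 and RPL24 −0.33.

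The gene table assigned 67 probe sets to the members, and 17 members had more than 1. Of the 22 other probe sets tested, 8 were lower and 1 higher in NoRx.F against healthy controls, and 14 had the sign of the one used. The second probe set of RPS15 was higher (1.20, SE 0.12, adjusted p 5.93e-13 in limma), opposite to the one used. Second probe sets of RPL15 (−1.46, adjusted p 2.05e-09) and RPL26 (−1.04, adjusted p 7.53e-09) were lower, although the probe sets used for these genes did not pass. In the sirolimus comparison 5 of the 22 were higher and 1 lower, the last again RPS15 (−0.28).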
